A study of Mus musculus with 6 samples.

Results

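The genes described here encode the catalytic and regulatory subunits of class I phosphoinositide 3-kinase (PI3K), 8 genes chosen by name, each measured by the 1 probe set annotated to that gene symbol alone. Of the 8, 7 were among the 13632 genes tested of 19938 genes with such a probe set, and Pik3cg lay below the level required for testing. RNA came from cardiomyocytes of mouse hearts at E12.5 (embryonic day) and was hybridised to 6 Affymetrix arrays, 3 from embryos labelled Yap HET and 3 from embryos labelled Yap KO. Both groups came from matings of mice with TNTCre, a Cre driven by the promoter of cardiac troponin T, a floxed Yap gene and the R26 mTmG reporter, so the comparison was between heterozygous and full loss of Yap in Cre-expressing cells, with no wild-type group. Single hearts were digested and GFP-positive cells sorted. The sources used here do not say whether an array held RNA of 1 or of several hearts, and the p-values measure the spread between these 6 preparations.

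Class I PI3K phosphorylates the plasma membrane lipid PIP2 to make PIP3, which recruits the kinases PDK1 and AKT and so promotes growth, division and survival of cells. Each enzyme pairs a p110 catalytic subunit with a regulatory subunit. In class IA, p110-alpha, p110-beta or p110-delta binds a regulatory subunit of the p85 type, which stabilises it and restrains its activity. The SH2 domains of this subunit dock on phosphorylated receptors and adaptors. In class IB, p110-gamma binds p101 or p84 and is switched on by G protein beta-gamma subunits, to which p110-beta also responds. In the heart p110-alpha is known for its role downstream of growth factor receptors. The series title asks about Pik3cb, the p110-beta gene, as a link from Hippo-Yap signalling to PI3K-AKT signalling.

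The DNA just upstream of Pik3cb and Pik3r3 is shown because these were the 2 subunit genes whose RNA level passed the test. The sequences are from RefSeq (build GRCm38.p6), 5′ to 3′ on the strand of the gene, and end at the base before the annotated gene. Pik3cb is on the minus strand at chr9:99140236-99140461 and Pik3r3 on the plus strand at chr4:116221166-116221399.
Pik3cb: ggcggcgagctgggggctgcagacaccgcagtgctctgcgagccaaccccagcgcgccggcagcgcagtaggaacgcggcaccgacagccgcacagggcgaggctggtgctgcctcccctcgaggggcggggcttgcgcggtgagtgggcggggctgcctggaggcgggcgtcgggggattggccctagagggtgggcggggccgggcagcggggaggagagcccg
Pik3r3: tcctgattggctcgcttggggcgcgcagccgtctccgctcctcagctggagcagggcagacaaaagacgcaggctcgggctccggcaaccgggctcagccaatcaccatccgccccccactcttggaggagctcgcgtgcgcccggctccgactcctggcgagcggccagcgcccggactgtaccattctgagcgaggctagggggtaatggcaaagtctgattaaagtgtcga

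The core motif of the TEAD factors, the DNA-binding partners of Yap, was searched as GGAATG on either strand (CATTCC on the other) in windows of 250 bases before to 50 bases after each annotated start. It occurred in 3 of the 14 windows of the 8 genes, and in 14.7% of all 32851 windows in the table. The Pik3cb window and the 3 Pik3r3 windows did not hold these letters, which says nothing of TEAD binding elsewhere at these genes. The matches lay at Pik3r2 (bases -130 to -125 from the start), at the second of 2 Pik3r1 starts (-17 to -12) and at the second of 3 Pik3cd starts (-93 to -88). They are printed in their surroundings of 30 bases, on the strand of the gene, which is the minus strand for all 3, with the motif in capitals. These 30 bases are chr8:70776825-70776854 for Pik3r2, chr13:101692630-101692659 for Pik3r1 and chr4:149676165-149676194 for Pik3cd. GGAATG itself reads on the minus strand at Pik3r1 and on the plus strand at the other two. A match is a description of sequence only, since binding was not measured on these arrays.
Pik3r2: agcccagcctccCATTCCcgcgggagcaca
Pik3r1: tctgcccacggtGGAATGtaccatgctgca
Pik3cd: ctgctcccgcccCATTCCtgggatgctccg

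In Yap KO cardiomyocytes the p110-beta gene Pik3cb fell and the regulatory gene Pik3r3 rose, while the other 5 tested subunit genes did not pass the test. Of the 7 tested, 1 fell and 1 rose (limma, adjusted p under 0.05 by Benjamini-Hochberg over all genes tested), against 4.76% of all genes tested that fell and 5.16% that rose, 9.93% in all. The groups did not overlap for 4 of the 7, Pik3ca, Pik3cb, Pik3r2 and Pik3r3, against 33.9% of all genes tested. At an unadjusted p under 0.05, 3 of the 7 were higher and 2 lower. At that level 1889 of all 13632 genes tested were higher and 1962 lower. The median log2 change of the 7 was -0.02, as was that of all genes tested. With each array centred on its median, the split over all genes moved from 704 higher and 649 lower to 1055 higher and 339 lower, and the calls of Pik3cb and Pik3r3 stood. Values given for each array are intensities on a linear scale, a log2 change is that of Yap KO relative to Yap HET, with its SE (standard error) or 95% interval, and means carry the SD of 3 arrays. Probe sets differ in how strongly they bind their target, so intensities of different subunits are given side by side and do not rank the amounts of their RNA.

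**Figure D1:**
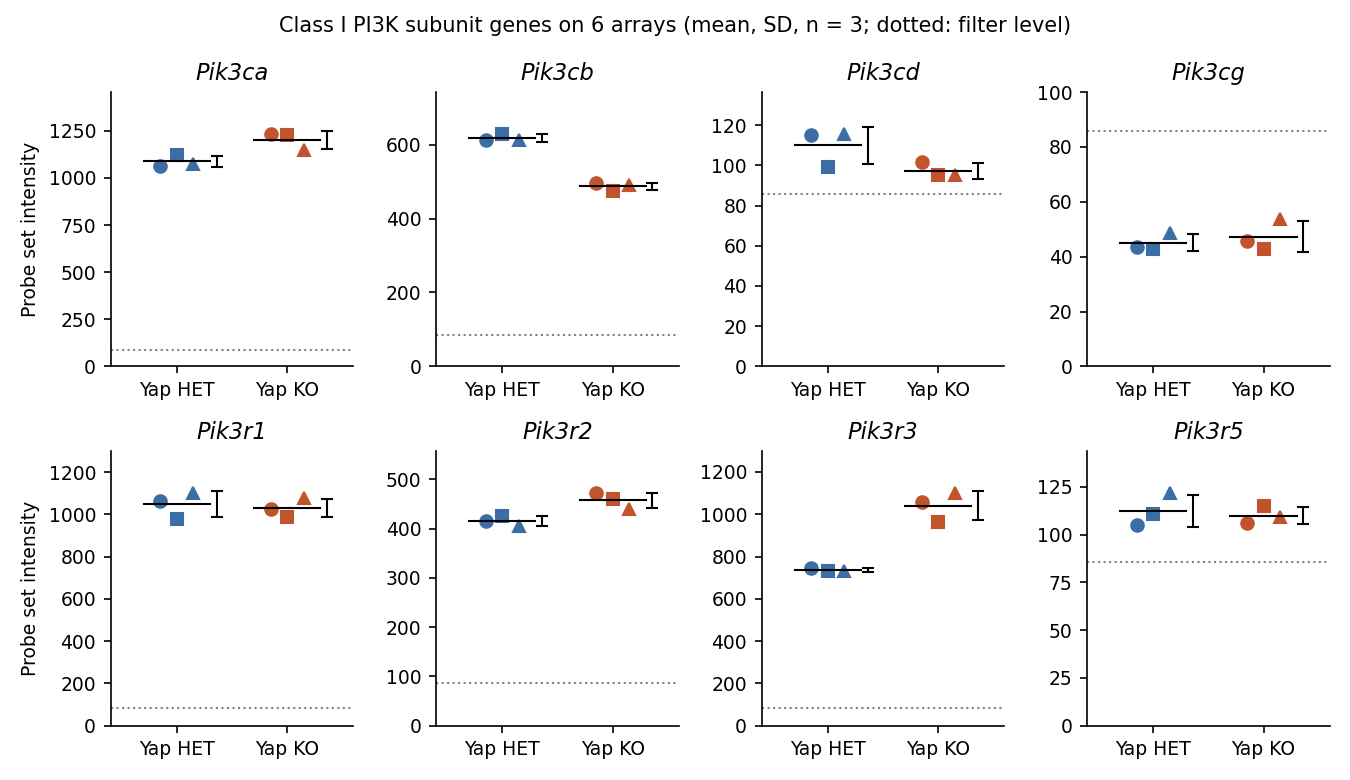
Probe set intensity (linear, from 0) of the 8 class I PI3K subunit genes on 3 Yap HET arrays (blue) and 3 Yap KO arrays (orange); circles, squares and triangles are replicates 1, 2 and 3, horizontal bars are means, brackets are the SD, and the dotted line is the filter level of 85.7. The groups are apart for Pik3ca, Pik3cb, Pik3r2 and Pik3r3 and overlap for the other 4 genes.

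The loss of Yap1 RNA was checked first. Yap1 read 886, 927 and 871 in Yap HET cells, against 103, 84.7 and 86.6 in Yap KO cells, so each array matched its label. Cells of the sort carried the cardiomyocyte program: all 14 cardiomyocyte markers were tested and 0 passed the limma test in either direction (unadjusted p under 0.05 in 2 of them, both lower), with summed intensities of 94192 to 95489 in Yap HET cells and 92825 to 95010 without Yap. Summed endothelial markers were 2122 to 2245 in Yap KO cells against 1835 to 1965 in Yap HET (3 of 11 tested rose and 1 fell). Those that rose were Kdr, Eng (log2 change 0.52 ± 0.08) and Ramp2 (0.35 ± 0.09), and Npr3 fell (-0.34 ± 0.06). With an array left out, Eng passed in 6, Ramp2 in 2 and Npr3 in 5 of 6 analyses. Without Kdr, 1 of the PI3K receptor genes below, the sums overlapped, at 1722 to 1858 against 1595 to 1740. The overlap was Yap KO replicate 1 (1722) below Yap HET replicate 1 (1740). Summed epicardial and mesenchymal markers were 8854 to 11379 against 8080 to 8866 (4 of 15 rose, 0 fell), and erythroid markers 1075 to 3293 against 924 to 1290 (1 of 7 rose, 0 fell). Of that list Ank1 rose (log2 change 0.25 ± 0.06), and it passed in 2 of 6 analyses with an array left out. The 3293 was Yap KO replicate 1. Hbb-y read 232, 27.1 and 19.8 in Yap HET cells, against 1295, 450 and 86.3 in Yap KO cells. Hba-x read 166, 41.1 and 32.1, against 822, 227 and 73.4. Their log2 changes of 2.89 ± 1.14 and 1.99 ± 0.89 did not pass (limma adjusted p = 0.15 and 0.19). Both were under the filter level on Yap HET replicates 2 and 3 and were tested through their Yap KO levels. The part of red cells in these values was not tested. Over all genes tested, 5.16% rose and 4.76% fell. Leukocyte markers summed to 2560 to 2778 against 2414 to 2724 (2 of 8 tested rose, 0 fell), smooth muscle and pericyte markers to 15016 to 16481 against 16328 to 16858, and neural crest markers to 837 to 876 against 765 to 878. In these last 2 lists 0 of 8 and 0 of 3 tested genes passed by limma, with 2 higher and 2 lower, and 1 higher, at an unadjusted p under 0.05. Most of the smooth muscle and pericyte sum was Acta2 (Yap HET mean 7815, Yap KO mean 7077) and Cnn1 (4607, 5163). Myh11 (136, 127), Rgs5 (183, 235), Notch3 (213, 250) and Kcnj8 (148, 115) added little to it. The sum therefore says little about those low genes, and the part of cardiomyocytes in it was not tested. In such bulk samples, fewer cells of a type and less RNA per cell cannot be told apart.

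Among the catalytic subunits of class IA, Pik3cb was the 1 that passed the test. Pik3cb read 611, 629 and 612 in Yap HET cells, against 495, 476 and 490 in Yap KO cells. All 3 Yap KO values lay below the lowest Yap HET value, and the groups were tight, with SDs of 10.1 around means of 617 and 487. The log2 change was -0.34 ± 0.05 (SE), a level lower by 21.2% (95% interval of the change -26.9% to -14.9%, limma adjusted p = 0.0063). Of all genes tested, 5.76% had a larger absolute change, and Pik3cb was number 212 in order of p. The call held in all 15 alternative analyses, with each array left out in turn included, and the largest adjusted p among them was 0.036. In RefSeq a pseudogene, Gm2773, overlaps Pik3cb, and it has no probe set of its own symbol alone here; whether the Pik3cb probe set also reads it was not tested.

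Pik3ca, the gene of p110-alpha, which carries most signalling from growth factor receptors, lay on the other side of 0. It read 1063, 1123 and 1076 in Yap HET cells, against 1234, 1227 and 1146 in Yap KO cells, without overlap but with Yap KO replicate 3 only slightly above Yap HET replicate 2. The log2 change of 0.14 ± 0.05 (95% interval 0.02 to 0.27) did not pass over all genes (limma adjusted p = 0.13, between 0.054 and 0.32 in the alternatives). A difference of up to 20.5% is therefore inside the interval. A protein-coding gene, Kcnmb3, overlaps Pik3ca in RefSeq and has 1 probe set of its own symbol alone. Whether the Pik3ca probe set also reads Kcnmb3 was not tested.

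Pik3cd and Pik3cg encode p110-delta and p110-gamma, the isoforms known mainly from white blood cells. Pik3cd read 115, 99.2 and 116 in Yap HET cells, against 102, 95.2 and 94.9 in Yap KO cells. These values overlapped and stood just above the filter level of 85.7. The log2 change was -0.17 ± 0.07 (limma adjusted p = 0.17). Without Yap HET replicate 2, the lowest of its group, the change was -0.25 and passed (limma adjusted p = 0.045), and it passed in none of the other 13 alternatives that tested it. The microRNA gene Mir7023 overlaps Pik3cd in RefSeq, and whether the Pik3cd probe set reads it was not tested. Pik3cg read 43.6, 42.9 and 48.7 in Yap HET cells, against 45.7, 42.7 and 53.6 in Yap KO cells, under the filter level on every array. Background was not measured here, so whether these values stand above it is not known. In the fit without a filter its log2 change was 0.07 ± 0.10 (95% interval -0.17 to 0.30).

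Of the 8 white cell markers tested, 6 had lower means in Yap KO cells, 4 of them at an unadjusted p under 0.05, and the list's median log2 change was -0.15; 0 fell by the limma test and 2 rose. The macrophage gene Cd68 had the largest difference downward, with means of 571 and 359 (log2 change -0.72, limma adjusted p = 0.063), and Coro1a stood at -0.20 on that scale (limma adjusted p = 0.098). The pan-leukocyte gene Ptprc had means of 117 and 104 in Yap HET and Yap KO cells (log2 change -0.17, limma adjusted p = 0.074) and the macrophage receptor gene Csf1r 123 and 106 (-0.21, limma adjusted p = 0.10). Of 17 leukocyte markers, 9 lay below the filter, among them Adgre1, Aif1, Cd74 and Tyrobp. Lyz2 (log2 change 0.47 ± 0.11, limma adjusted p = 0.036) and the class II gene H2-Ab1 (1.19 ± 0.21, limma adjusted p = 0.014) rose. H2-Ab1 read 80.1, 129 and 70.0 in Yap HET cells, against 231, 183 and 202 in Yap KO cells. Yap HET replicates 1 and 3 thus lay under the filter level. Lyz2 kept its call in 1 of 6 analyses with an array left out and H2-Ab1 in 5. The part of white cells in the Pik3cd values was not tested.

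**Figure D2:**
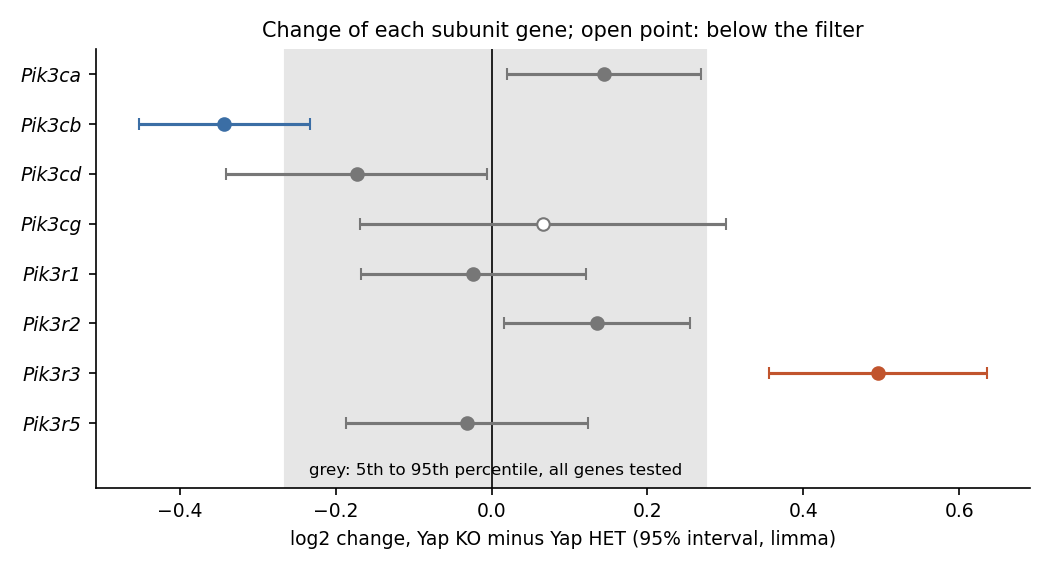
log2 change, Yap KO minus Yap HET, with its 95% interval from limma for each of the 8 subunit genes (3 arrays a group); blue is lower and orange higher past the threshold, grey is not past it, the open point is Pik3cg, and the grey band spans the 5th to 95th percentile of all genes tested (-0.27 to 0.28). Pik3cb at -0.34 and Pik3r3 at 0.50 lie outside the band.

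Among the regulatory subunits, Pik3r3 rose. It encodes p55-gamma, a short class IA regulatory subunit that keeps the SH2 domains and lacks the SH3 and BH domains of p85. Pik3r3 read 748, 730 and 733 in Yap HET cells, against 1057, 965 and 1100 in Yap KO cells. Every Yap KO value was well above every Yap HET value, and the spread was wider in Yap KO cells (SD 69.1 around 1040.4) than in Yap HET cells (SD 9.74 around 737). The log2 change was 0.50 ± 0.06, a level higher by 41.0% (95% interval 28.0% to 55.4%, limma adjusted p = 0.0042). Of all genes tested, 2.07% had a larger absolute change. The call held in all 15 alternatives, with a largest adjusted p of 0.023. A pseudogene, Gm18535, overlaps Pik3r3 in RefSeq, and whether the probe set reads it was not tested.

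The order of the 3 Yap KO arrays in Pik3r3 (replicate 2 lowest, 3 highest) was also that of the summed epicardial and mesenchymal markers, 8932, 8854 and 11379 on Yap KO replicates 1, 2 and 3. On the Yap HET arrays these sums were 8317, 8866 and 8080, and replicate 2, with the highest sum, had the lowest Pik3r3 value. Within that marker list Pdgfra, Pdgfrb, Tcf21 and Postn rose, while the epicardial genes Wt1, Upk3b and Tbx18 had log2 changes of 0.04, -0.68 and -0.37 that did not pass. With an array left out Tcf21 passed in 4 and Postn in 5 of 6 analyses. Whether cells other than cardiomyocytes contributed to Pik3r3 was not tested.

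Pik3r1 and Pik3r2 encode p85-alpha and p85-beta, the long class IA regulatory subunits. Pik3r1, which also gives the short forms p55-alpha and p50-alpha from its later starts, read 1064, 981 and 1101 in Yap HET cells, against 1027, 989 and 1077 in Yap KO cells. The groups overlapped almost wholly, and the 95% interval of the log2 change, -0.17 to 0.12, spans -11.0% to 8.77% (limma adjusted p = 0.84). The sign of the estimate turned under median centring and when Yap HET replicate 3 or, separately, Yap KO replicate 2 was left out. The 1 probe set does not tell the Pik3r1 forms apart here. Pik3r2 read 416, 427 and 406 in Yap HET cells, against 472, 459 and 440 in Yap KO cells, without overlap. Its log2 change of 0.14 ± 0.05 (95% interval 0.02 to 0.25) did not pass (limma adjusted p = 0.13, between 0.062 and 0.30 in the alternatives).

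Pik3r5 encodes p101, the class IB partner of p110-gamma that senses G protein beta-gamma. It read 105, 111 and 122 in Yap HET cells, against 106, 115 and 109 in Yap KO cells, with overlap and close to the filter level. The 95% interval of its log2 change was -0.19 to 0.12 (limma adjusted p = 0.80), and the sign of the estimate turned under quantile normalization, median centring and cyclic loess, and without Yap HET replicate 3.

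The changes of Pik3cb and Pik3r3 were also set against those of their relatives on the same array, as a log2 ratio of intensities. The Pik3cb to Pik3ca ratio was -0.80, -0.84 and -0.81 in Yap HET cells, against -1.32, -1.37 and -1.23 in Yap KO cells. It was lower on every Yap KO array, by 0.49 ± 0.04 (SE) on average, and its sign against 0 carries no meaning across probe sets. The ratio of Pik3cb to Pik3cd was lower by 0.17 ± 0.09. The ratio to Pik3cg, which lay below the filter, was computed and is not read here. The Pik3r3 to Pik3r1 ratio was -0.51, -0.43 and -0.59 in Yap HET cells, against 0.04, -0.04 and 0.03 in Yap KO cells, a shift of 0.52 ± 0.05. Against Pik3r2 and Pik3r5 the shifts were 0.36 ± 0.08 and 0.53 ± 0.11. The groups did not overlap in any of the other 5 ratios. Each of the 6 comparisons had a two-sided exact permutation p of 0.1, also after Benjamini-Hochberg adjustment over the 6, which is the smallest that 3 arrays against 3 allow, so none could pass a threshold of 0.05. The smallest shift, Pik3cb against Pik3cd, was within 2 SE of 0, and ranged from -0.23 to -0.08 over its alternatives.

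**Figure D3:**
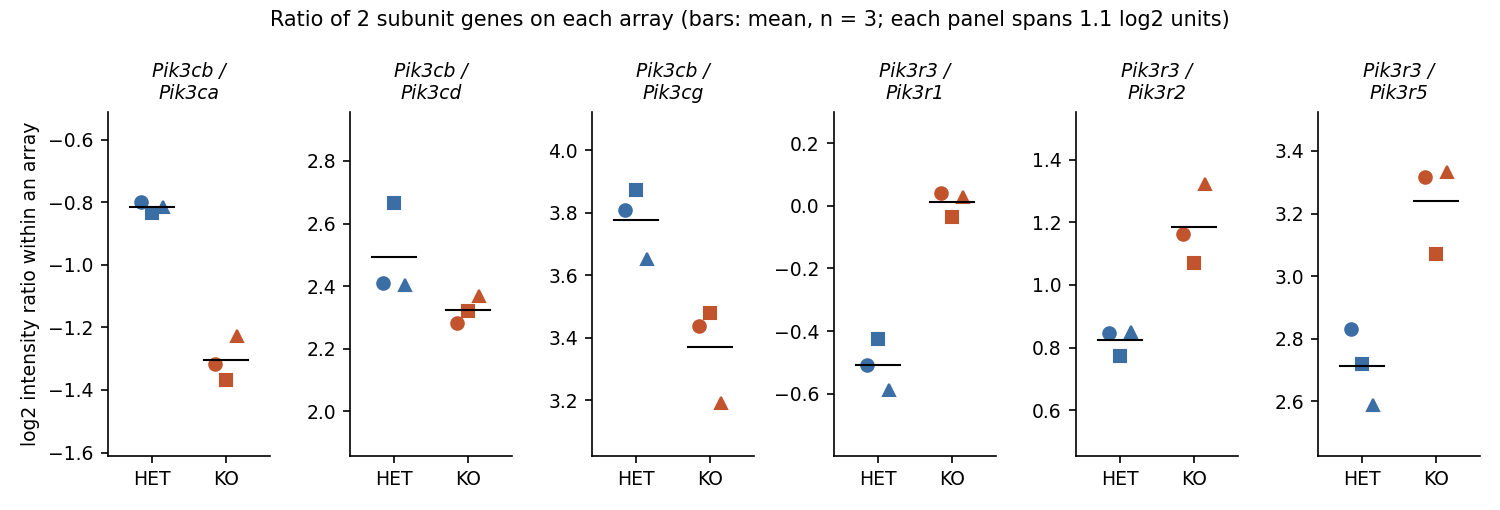
log2 ratio of the intensities of 2 subunit genes on each of 3 Yap HET (blue) and 3 Yap KO (orange) arrays; circles, squares and triangles are replicates 1, 2 and 3, bars are means, and every panel spans the same range with its own offset. Pik3cb is lower relative to Pik3ca by 0.49 and Pik3r3 higher relative to Pik3r1 by 0.52.

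The genes whose array pattern was nearest to that of Pik3cb, by the root mean square difference of log2 values after each gene's own mean was subtracted, were Ptpn14, a phosphatase known as a Yap binding partner (0.022), Kl, the gene of the FGF coreceptor klotho (0.023), Abhd17c, a depalmitoylase gene (0.023), Poc1a, a centriole gene (0.023), and the histone chaperone gene Asf1b (0.026). Their log2 changes lay between -0.37 (Ptpn14) and -0.30 (Abhd17c), and all 5 passed the test. Kl was near the filter level in Yap KO cells, with a mean of 87.4. Abhd17c and Poc1a lost the call without Yap HET replicate 1 (limma adjusted p = 0.054 and 0.052) and without Yap KO replicate 2 (0.057 and 0.053). Nearest to Pik3r3 were Dnm1, the gene of neuronal dynamin (0.044), the actin-binding gene Dbn1 (0.045), the meiosis gene Meioc (0.047), the collagen VI gene Col6a1 (0.048) and Pnmal2 (0.050). Their log2 changes lay between 0.45 (Col6a1) and 0.48 (Dnm1), and 4 of them, all but Meioc, were above the filter level in both groups and passed the test. Dnm1 had means of 176 (Yap HET) and 246 (Yap KO), Dbn1 867 and 1196, and Meioc 73.6 and 102. Meioc was under the filter level in Yap HET cells and entered the test only through its Yap KO level, so its call carries no weight. With 6 arrays in 2 groups, a near pattern mostly reflects a like difference between the groups.

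**Figure D4:**
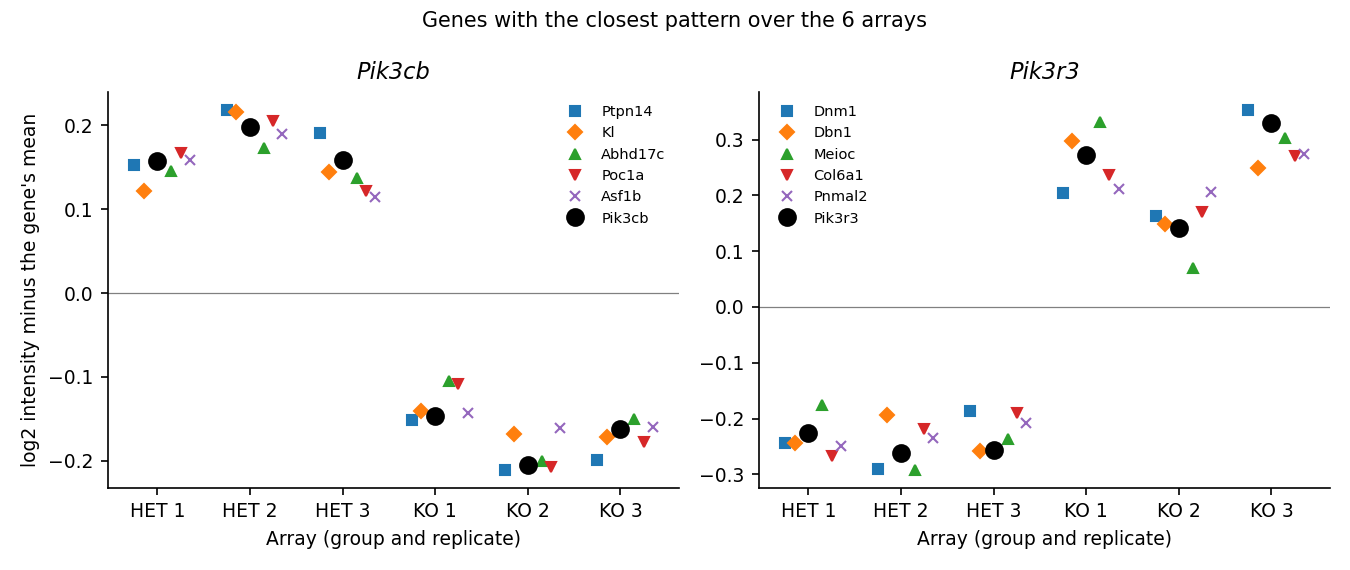
log2 intensity minus the gene's own mean over the 6 arrays for Pik3cb (left) and Pik3r3 (right), large black points, and for the 5 genes nearest to each. Pik3cb and its neighbours are above 0 on the 3 Yap HET arrays and below 0 on the 3 Yap KO arrays; for Pik3r3 the order is the opposite.

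Around the enzyme, 8 of 138 tested genes of 11 lists (receptors, adaptors, GTPases, G protein subunits, other PI3K classes, lipid supply, phosphatases, PIP3 effectors, AKT and FOXO genes) rose and 7 fell in Yap KO cells, against 9.93% of all genes tested that changed. Their median log2 change was 0.02, against -0.02 for all genes tested. Pdgfra, Pdgfrb, Kdr, Gng2, Inpp4b and Ccng2 kept their calls in every alternative that tested them. The other 9 each lost the call with some array left out. With Yap HET replicate 1 left out, 5 genes rose in place of 8. The number of falls, 7 with all arrays, was 4 when Yap KO replicate 1 was left out, 2 when Yap HET replicate 2 or 3 was, and 1 in each of the other 3 cases (Yap HET replicate 1, or Yap KO replicate 2 or 3).

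Of 15 tyrosine kinase receptor genes tested, which switch class IA enzymes on, 4 rose and 1 fell. This was 33.3% in all, against 9.93% of all genes tested. Kdr, the main VEGF receptor of endothelial cells, went from 235 to 399 (log2 change 0.76 ± 0.05). The PDGF receptor genes Pdgfra (0.98 ± 0.10) and Pdgfrb (0.73 ± 0.08), whose products dock p85 directly, also rose. So did the stem cell factor receptor gene Kit (0.52 ± 0.10). Erbb2, the neuregulin coreceptor of cardiomyocytes, fell (-0.20 ± 0.05, limma adjusted p = 0.041). Erbb2 passed in 0 of 6 analyses with an array left out (limma adjusted p up to 0.14) and in 6 of all 15 alternatives. Kdr is also in the endothelial marker list and Pdgfra and Pdgfrb in the mesenchymal list, whose sums are given above with Yap1; without these 2 the mesenchymal sums were 7716 to 10090 in Yap KO cells and 7457 to 8168 in Yap HET cells. Kit passed in 4 of 6 analyses with an array left out. The share of other cell types in these receptor values was not tested.

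Adaptors, GTPases and the lipid supply showed no call. For the unadjusted counts below, 1889 of all 13632 genes tested were higher and 1962 lower at the same level. Of 12 tested adaptor genes, 0 passed by limma, and at an unadjusted p under 0.05 the counts were 1 up and 2 down; Gab2, a docking protein that binds p85, came nearest (log2 change 0.23 ± 0.06, limma adjusted p = 0.055), followed by Crkl (-0.13 ± 0.05, limma adjusted p = 0.12). Of 9 small GTPases known to bind p110 subunits, 0 passed by limma, with 1 up at an unadjusted p under 0.05. This was Rab5a, whose product binds p110-beta on endosomes (0.13 ± 0.05, limma adjusted p = 0.11), and Rab5c came next (-0.07 ± 0.05, limma adjusted p = 0.44). Of 14 genes that make or move the substrate lipid, 0 passed by limma, and at an unadjusted p under 0.05 the counts were 1 up and 1 down, Pitpnb (0.13 ± 0.05) and Pip4k2a (-0.12 ± 0.05). Under other settings at most 1 adaptor gene passed, in 7 of 15 alternatives, and at most 1 GTPase gene, in 1 of 15.

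The G protein input had 1 change. Of 13 tested beta and gamma subunit genes, Gng2 fell from 931 ± 34.4 to 718 ± 12.4 (log2 change -0.37 ± 0.05, limma adjusted p = 0.0061), and 0 rose by limma, with 1 higher at an unadjusted p under 0.05. Beta-gamma dimers activate p110-beta and p110-gamma. The 1 higher gene was Gng10, at 0.17 ± 0.07 (limma adjusted p = 0.18), whose groups overlapped.

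The other class I regulators and the class II and III enzymes made 0 calls by limma. Pik3ip1, a membrane protein that binds p110 and lowers its activity, stood at 0.29 ± 0.09 on the log2 scale (limma adjusted p = 0.094). Pik3ap1, an adaptor of B cells and macrophages, had -0.14 ± 0.06 and Pik3r6, the gene of the class IB subunit p84, -0.08 ± 0.05. All 3 of these had groups that did not overlap, against 33.9% of all genes tested, and at an unadjusted p under 0.05 the counts were 1 up and 1 down. Of these 3 regulators, 1 passed as higher with median centring and 1 with a trended and robust prior. Of 8 tested class II and III genes, 1 was higher at an unadjusted p under 0.05 and none lower. This was Pik3c2a (0.13 ± 0.06, limma adjusted p = 0.17), the class II enzyme of endosomes and clathrin-coated pits. Atg14, of the class III autophagy complex, had 0.10 ± 0.06.

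Downstream of the lipid product, 4 of 66 tested genes rose and 5 fell, 13.6% in all against 9.93% of all genes tested. Of 12 tested lipid phosphatases, Inpp4b, which removes a phosphate from the PIP3 breakdown product PI(3,4)P2, rose (log2 change 0.51 ± 0.06), as did Inpp5f (0.33 ± 0.06), and 0 fell by limma, with 1 lower at an unadjusted p under 0.05. Of 16 tested PIP3-binding effectors, the exchange factor gene Cyth3 rose (0.22 ± 0.06) and Swap70 (-0.32 ± 0.08) and Adap1 (-0.28 ± 0.06) fell. Of 21 tested AKT regulators and substrates, the AKT phosphatase genes Phlpp2 (-0.29 ± 0.06) and Phlpp1 (-0.22 ± 0.06) and the translation repressor gene Eif4ebp1 (-0.21 ± 0.05) fell and 0 rose by limma, with 2 higher at an unadjusted p under 0.05. Of 18 tested FOXO target genes, which AKT holds down by keeping FOXO factors out of the nucleus, Ccng2 rose (486 to 689, log2 change 0.50 ± 0.07) and 0 fell by limma, with 3 lower at an unadjusted p under 0.05. With an array left out, Cyth3, Phlpp1 and Eif4ebp1 passed in 0 of 6 analyses, Swap70 and Adap1 in 1, Phlpp2 in 3 and Inpp5f in 4.

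**Figure D5:**
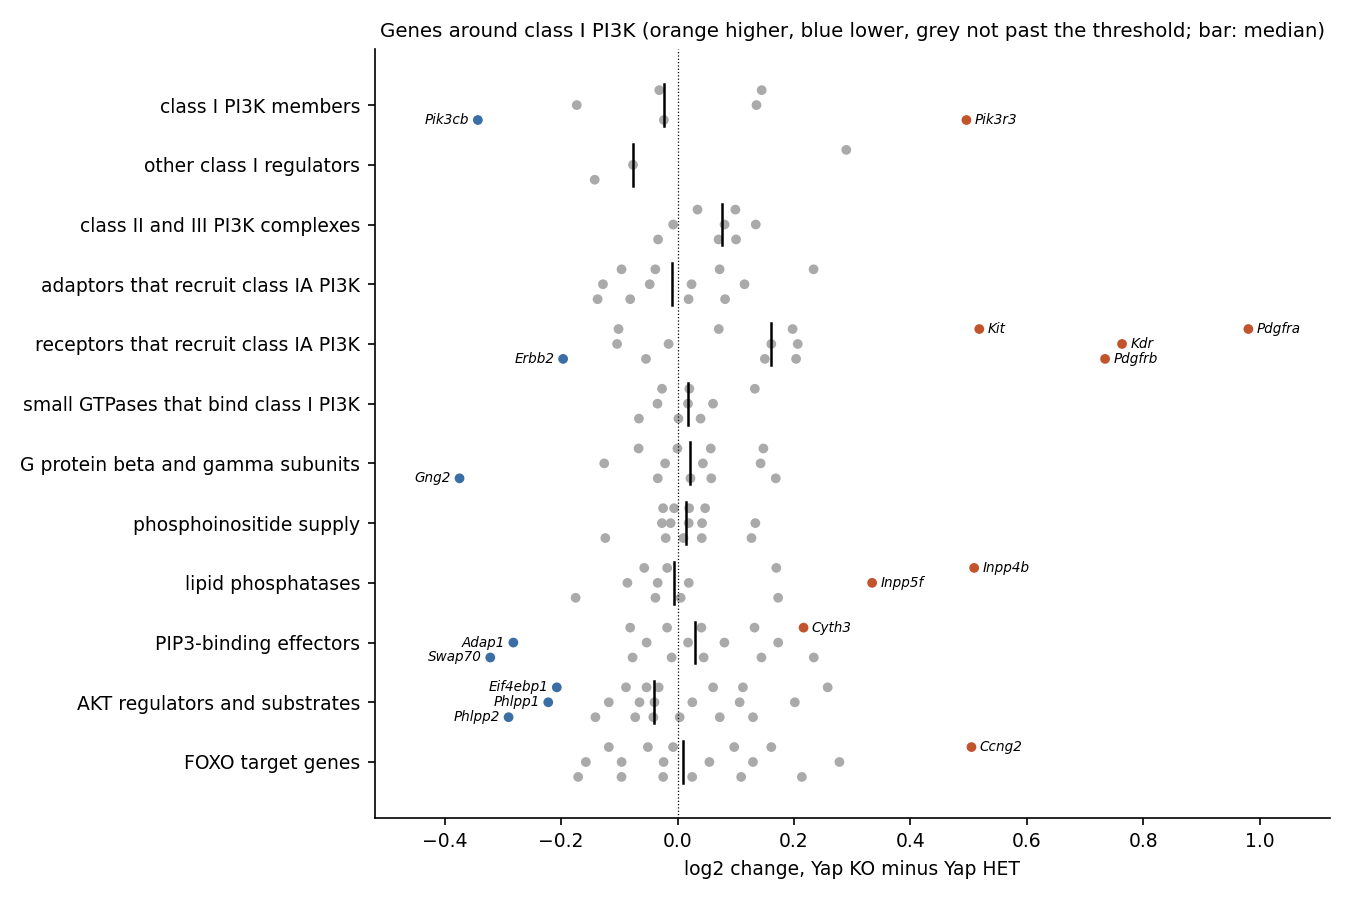
log2 change, Yap KO minus Yap HET, of the tested class I PI3K subunit genes (top row) and of 11 lists of genes around them; orange points are higher and blue points lower past the threshold, grey points are not past it, and bars are list medians. The receptor list has the median farthest above 0, at 0.16, and the subunit genes have 1 point past the threshold on each side.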

How the data were processed

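The probe set intensities deposited by the authors are on a linear scale and were made with RMA of unnamed version, per the submitters' processing notes. RMA usually gives log2 values; the sources used here do not say how the linear scale arose. Per the labels' protocols, cRNA was made from 0.1 µg of RNA. The log2 of the intensity was taken here. Probe sets with 1 gene symbol were kept, with symbols updated through RefSeq (GRCm38.p6), and the probe set with the highest mean stood for a gene. Genes under the 40th percentile of probe set means (intensity 85.7) were left out, which left 13632 genes. The 2 groups were compared with limma 3.58.1 (lmFit, eBayes; R 4.3.3), with Benjamini-Hochberg adjustment over those genes, and the test was checked on simulated data. No detection call was used. The number of arrays limits the precision.

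The subunit genes and lists were chosen with earlier results of these data known. Of 153 pathway genes listed, 146 had a probe set of 1 symbol and 138 were tested. Named were all 8 subunit genes, genes that overlap one in RefSeq, Yap1, and the 5 nearest patterns of Pik3cb and Pik3r3. From the lists, members past the threshold were named. In pathway lists without any, up to 2 with the smallest p were named instead. Ptprc, Csf1r, Cd68, Coro1a, Wt1, Upk3b, Tbx18, Adgre1, Aif1, Cd74, Tyrobp, Pik3r6 and Gng10 were added after their values were seen. So were Hbb-y, Hba-x, Acta2, Cnn1, Myh11, Rgs5, Notch3 and Kcnj8. Results were recomputed unfiltered, with the filter raised to the 60th percentile, and with quantile normalization, median centring, cyclic loess, an offset of 50, a trended and robust prior, the mean of probe sets, the replicate number as a block, and each array left out in turn.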

Additional observations from a re-analysis of the deposited data

How the results depend on the processing

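The calls of Pik3cb and Pik3r3 and the directions of the 5 subunit ratios between genes above the filter held in every alternative run (15 for the genes, 12 for the ratios); log2 changes ranged from -0.36 to -0.28 for Pik3cb and from 0.45 to 0.56 for Pik3r3. The subunit genes that fell were 1 in each alternative, and between 1 and 2 with an array left out, the second being Pik3cd without Yap HET replicate 2, where its change was -0.25; over the arrays left out it ranged from -0.25 to -0.13. The pathway genes that fell were 1 with no filter, 1 with median centring and 1 with the replicate block, and those that rose were 15 with median centring and 15 with a trended and robust prior, against 7 and 8. With an array left out they were between 1 and 4 that fell and between 5 and 10 that rose. Over all genes, 1353 calls became 508 with no filter, 2246 with a trended and robust prior, 698 with the replicate block, and between 433 and 1375 with an array left out. Deviations from the group mean correlated at -0.08, -0.17 and 0.12 between same-numbered arrays (replicates 1, 2 and 3). Between arrays of different numbers the correlations ran from -0.23 to 0.28. Whether same-numbered arrays shared a source cannot be told from these few values. With the replicate number as a block, no subunit gene gained or lost its call. With 3 arrays a group and no detection call, Pik3cg, below the filter, was not tested. Marker sums without Kdr, Pdgfra and Pdgfrb were chosen after seeing the data.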
